A study of Caenorhabditis elegans with 6 samples.

Results

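The histone genes of Caenorhabditis elegans, a nematode worm, were examined in L1 larvae, the stage that hatches from the egg, kept without food. Wild type was compared with lin-35(n745), in which the gene for the worm's retinoblastoma homologue carries an early stop. A probe set, the group of array probes read out as 1 value, was taken as a histone probe set when its only gene symbol was a his or hil symbol with a number, htz-1 or htas-1. This gave 42 probe sets for 36 genes, of 17118 genes that had a probe set with 1 symbol, and the brightest probe set over all 6 arrays stood for each gene. Larvae of both genotypes had been kept for 30 h at 20 °C in S-basal buffer without cholesterol, and every group was starved. Each genotype had 3 single-colour Affymetrix arrays, which the labels call biological replicates and for which 6 µg of total RNA was labelled. Values are RMA (robust multi-array average) levels in log2 units, so a difference of 1 is 2-fold. Because RNA came from whole larvae, fewer cells that express a gene and less RNA per cell cannot be told apart.

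Nucleosomes hold pairs of the core histones H2A, H2B, H3 and H4, and linker histone H1 binds the DNA between them. Most core histone genes are present in many nearly identical copies that lie in clusters, are transcribed mainly during DNA replication, and give messages that end in a stem-loop and not in a poly(A) tail. Variant histones such as H3.3 and H2A.Z are made outside replication too and usually have ordinary polyadenylated messages. LIN-35 acts with E2F and DP proteins as a repressor of genes of the cell cycle, and arrested L1 larvae do not divide. The standard labelling protocol named in the labels is known to prime from poly(A) tails, so how much of each core histone message was labelled is not known, and a level here is that of the labelled part.

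The symbols fell into 4 H2A, 4 H2B, 5 H3, 6 H4, 5 H3.3 and 9 H1 genes, the H2A variants htz-1 and htas-1, and his-73, which was left untyped. The other 46 histone symbols of the gene table were present only on probe sets that list several genes, of which there were 24. Histone copies are so alike that 21 of the 36 genes were measured by probe sets whose identifiers end in _s_at or _x_at, which marks probes that can match more than 1 transcript, while 15 had probe sets that end in _at only. A value from the former kind can therefore include related genes.

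Each of the 19 core histone genes that had a probe set with 1 symbol showed a lower mean in lin-35(n745) larvae. Of these 9 passed the test, all on _x_at probe sets, while no linker histone gene passed it. Of the 36 genes, 10 fell and 0 rose by limma, with adjusted p under 0.05 over all 22548 probe sets, where 6.12% of all genes fell and 5.71% rose. At an unadjusted p under 0.05, 19 were lower and 2, his-72 and htz-1, were higher, where 15.5% of all genes were lower and 11.8% higher. All 19 core histone genes had a negative log2 difference and 9 of them fell, with a median of −0.74 beside −0.04 for all 17118 genes. In 17 of the 19 every mutant array lay below every wild-type array, which held for 18.2% of all genes. Among the 16 linker and variant genes 1 fell, and the median was −0.10. The lowest median of a type was that of H2B at −1.70, against −0.67 for H2A, −0.57 for H3 and −0.87 for H4.

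**Figure D1:**
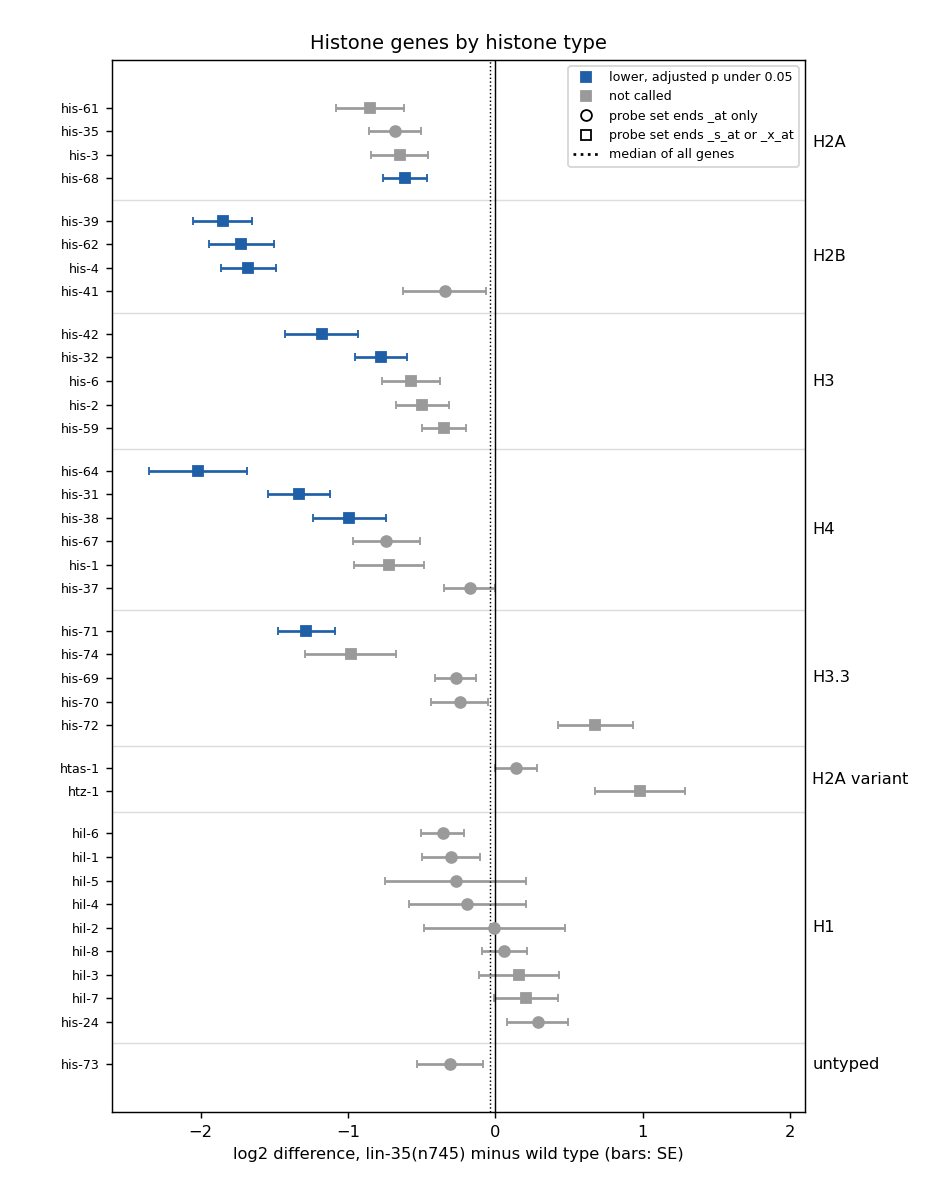
Log2 difference, lin-35(n745) minus wild type, of each histone gene by its brightest probe set, grouped by histone type, with the standard error from limma as bars. Blue marks the 10 genes that fell, squares the probe sets that can match several transcripts, and the dotted line the median of all genes at −0.04. All 19 core histone genes lie left of 0, and his-72 and htz-1 lie farthest to the right.

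The calls and the kind of probe set went together. All 10 genes that fell were among the 21 measured by _s_at or _x_at probe sets, where 6.13% of all such genes fell and 8.73% rose. None of the 15 genes on _at probe sets passed the threshold, where 6.11% of all such genes fell and 4.71% rose, and their median was −0.27. Within these 15, however, the 4 core genes all had negative differences, from −0.74 to −0.17. The part of cross-matching in the result was not tested.

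Of the 4 H2B genes 3 fell, by similar amounts. The gene his-4 read 7.25, 7.23 and 7.56 in the wild type and 5.39, 5.79 and 5.83 in the mutant, in the order of the replicate numbers, as for all genes here. The difference was −1.68 (SE 0.19, limma adjusted p = 0.00253), or 3.20-fold. For his-39 the values were 8.12, 8.33 and 8.46 in the wild type and 6.11, 6.71 and 6.54 in the mutant. This difference of −1.85 (SE 0.20, limma adjusted p = 0.00237) corresponds to a 3.61-fold lower level. The values of his-62 were 8.62, 8.45 and 8.82 against 6.47, 7.07 and 7.17, a difference of −1.72 (SE 0.22, limma adjusted p = 0.00462). In each of these 3 genes the highest mutant array lay more than 1 log2 unit below the lowest wild-type array, and mutant replicate 1 was the lowest array. The remaining H2B gene, his-41, is measured by an _at probe set and did not follow them. It read 11.18, 11.26 and 11.06 in the wild type and 10.18, 10.99 and 11.29 in the mutant, so that the groups overlapped. Its difference was −0.35 (95% interval −1.01 to 0.32, limma adjusted p = 0.524).

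Of the 6 H4 genes 3 fell. The lowest was his-64, at 8.65, 9.90 and 9.45 in the wild type and 6.95, 7.37 and 7.61 in the mutant. Its level was 4.06-fold lower (−2.02, SE 0.33, limma adjusted p = 0.0111), although its wild-type arrays differed among themselves by more than 1 log2 unit. For his-31 the wild-type values were 7.80, 8.56 and 8.23 and the mutant values 6.81, 6.97 and 6.81, a difference of −1.33 (SE 0.21, limma adjusted p = 0.0102). The values of his-38 were 7.81, 8.65 and 7.99 against 6.99, 7.09 and 7.40, a difference of −0.99 (SE 0.25, limma adjusted p = 0.0458). That call was lost when any 1 of the 6 arrays was left out. Neither his-1 (−0.72, limma adjusted p = 0.0999) nor his-67 (−0.74, limma adjusted p = 0.0836) passed, though in both genes all mutant arrays were below all wild-type arrays. The H4 gene his-37, on an _at probe set, read 12.36, 12.57 and 12.33 in the wild type and 12.43, 12.32 and 11.98 in the mutant. The groups overlapped, with a difference of −0.17 (95% interval −0.58 to 0.23, limma adjusted p = 0.621) whose sign turned with cyclic loess (0.05).

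**Figure D2:**
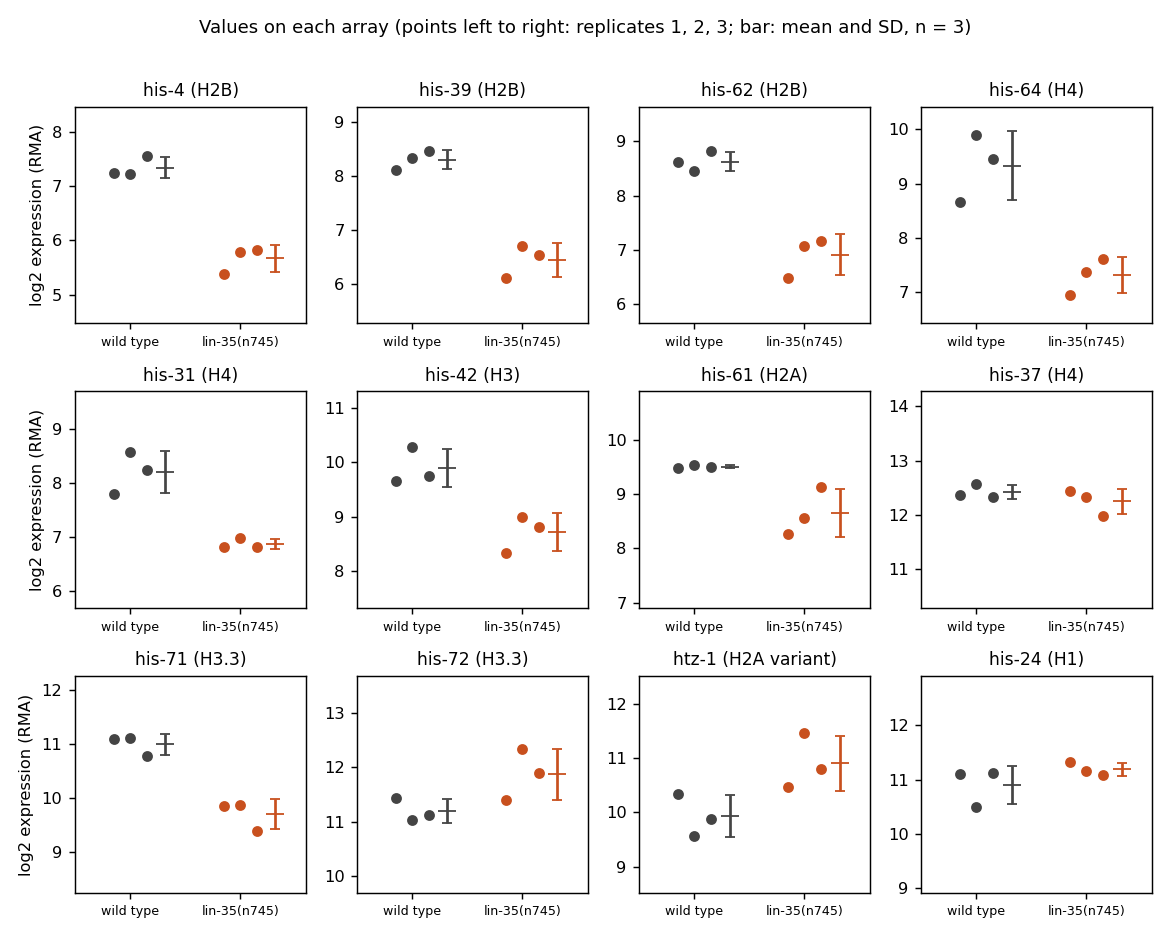
Log2 expression of 12 histone genes on each array, with wild type in grey and lin-35(n745) in orange, replicates 1 to 3 from left to right and the mean and SD (n = 3) as a bar. Every panel spans 4 log2 units. The mutant arrays of his-4, his-39, his-62, his-64, his-31, his-42, his-61 and his-71 lie below all wild-type arrays, those of htz-1 above them, and those of his-37, his-72 and his-24 overlap with them.

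Of the 5 H3 genes 2 fell. The gene his-42 read 9.65, 10.29 and 9.74 in the wild type and 8.33, 8.998 and 8.82 in the mutant, a difference of −1.18 (SE 0.25, limma adjusted p = 0.0256). Its neighbour in size of effect, his-32, read 9.91, 9.79 and 10.07 against 8.89, 9.36 and 9.19, a difference of −0.78 (SE 0.18, limma adjusted p = 0.0334). The groups did not overlap in either gene. Without mutant replicate 3 the adjusted p was 0.0723 for his-42 and 0.0784 for his-32. Without wild-type replicates 1, 2 or 3 it was 0.06, 0.068 and 0.051 for his-42, and 0.116, 0.0664 and 0.0984 for his-32, which also lost the call without mutant replicate 1 (0.0664). The other H3 genes, his-6 (−0.57), his-2 (−0.50) and his-59 (−0.35), had adjusted p between 0.108 and 0.194, and in all 3 the mutant arrays lay below the wild-type arrays.

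H2A genes lay close together, between −0.85 and −0.61, and the groups did not overlap in any of the 4. The only one to pass was his-68, at 7.79, 8.03 and 7.79 in the wild type and 7.15, 7.29 and 7.32 in the mutant (−0.61, SE 0.15, limma adjusted p = 0.0409). This call was lost without any 1 of the 6 arrays, with adjusted p between 0.0699 and 0.121. The gene his-61 had the larger difference of −0.85 and stayed above the threshold (SE 0.23, limma adjusted p = 0.0568), and without mutant replicate 3 its adjusted p was 0.0188. For his-35, on an _at probe set, the values were 11.09, 11.32 and 10.97 in the wild type and 10.33, 10.69 and 10.30 in the mutant. The difference of −0.68 (SE 0.18, limma adjusted p = 0.0502) lay just above the threshold, and it passed when only _at probe sets were tested (0.0499). The remaining H2A gene, his-3, stood at −0.65 (limma adjusted p = 0.0725).

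Genes of 1 cluster had differences of unequal size. Runs of histone genes with no other protein-coding gene between them were taken from the WBcel235 gene table, and 3 of them held an H2B gene that fell beside other measured members. In the run of his-4, his-3, his-2 and his-1, which holds each core type once, the H2B gene his-4 differed by −1.68, while H2A, H3 and H4 genes differed by −0.65, −0.50 and −0.72. Taking the values of a pair from the same array leaves out what shifts both probe sets equally, but not what affects 1 of them more. Only the change of that offset between genotypes can be read, not the offset itself. For his-4 minus his-3 the wild-type offset was −1.43 ± 0.35 (SD, n = 3) and the mutant offset −2.45 ± 0.15 (SD, n = 3). For his-62 minus its neighbour his-61 the offsets were −0.88 ± 0.20 (SD, n = 3) and −1.75 ± 0.24 (SD, n = 3). For his-39 minus his-6 they were −0.64 ± 0.23 (SD, n = 3) and −1.92 ± 0.14 (SD, n = 3). In these pairs, and in his-4 against his-2 and his-1 and his-62 against his-59, the mutant arrays lay entirely below the wild-type arrays. The exact two-sided permutation test gave p = 0.1 for each of 7 pairs compared, the smallest that 3 against 3 arrays allow, and 0.1 after adjustment over the 7. The pairs were chosen after the values were seen, and the probe sets of these genes can match other copies.

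**Figure D3:**
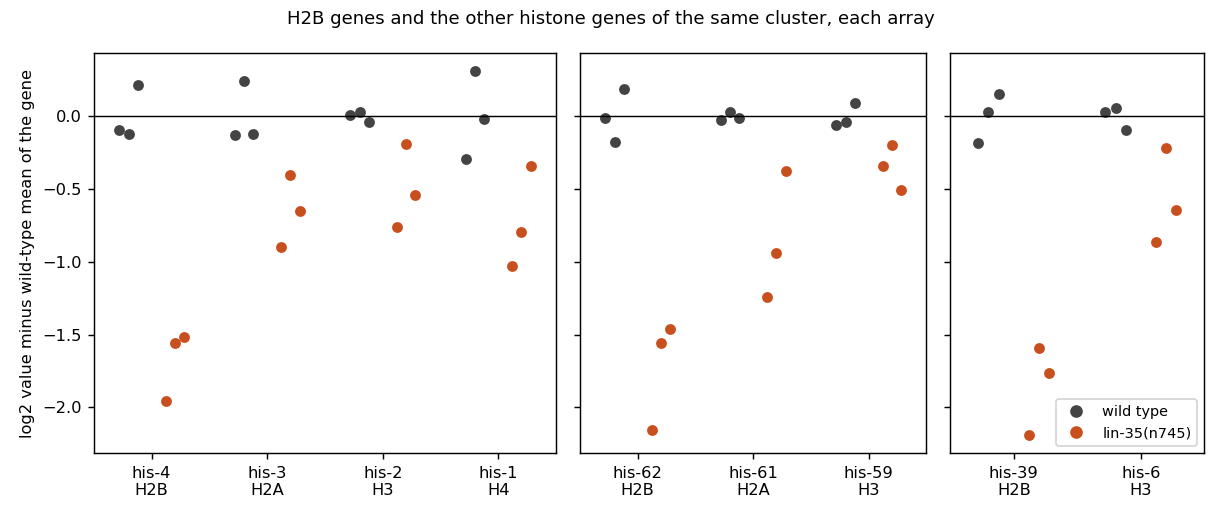
Values of each array minus the wild-type mean of the gene, in log2 units, for 3 runs of neighbouring histone genes, with wild type in grey and lin-35(n745) in orange. In each run the 3 mutant arrays of the H2B gene (left) lie deeper below 0 than any mutant array of the H2A, H3 and H4 genes beside it.

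Probe sets that list several histone genes gave further measurements of the family, from probes that stand for no single gene. These probe sets were not used for the 36 genes, but the genes they list include some of the 36. They therefore do not measure a separate set of genes. In 23 of the 24 all listed histone genes were of 1 type, and the remaining 1 listed H2A, H2B and 5 other transcripts. All 24 had negative differences, 11 fell and 0 rose, where 5.59% of all probe sets fell and 5.69% rose, and in 23 the groups did not overlap, against 17.2% of all probe sets. Each of the 6 shared H2B probe sets fell, with a median of −2.13, and each kept its call without any 1 array. The lowest of them listed 3 H2B genes and read 8.80, 8.95 and 9.16 in the wild type and 4.99, 5.32 and 5.94 in the mutant. This was the largest difference of the 24, 11.7-fold or −3.55 in log2 units (SE 0.26, limma adjusted p = 0.000552). Shared H4 probe sets had a median of −1.06, with 2 of 6 called, and the lowest of them stood at −2.19 (SE 0.37, limma adjusted p = 0.0118). Of 5 shared H2A probe sets 2 fell, with a median of −0.84. For H3 the median was −0.45 and 1 of 6 fell, the probe set that listed 14 H3 genes (−1.54, SE 0.24, limma adjusted p = 0.0087).

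**Figure D4:**
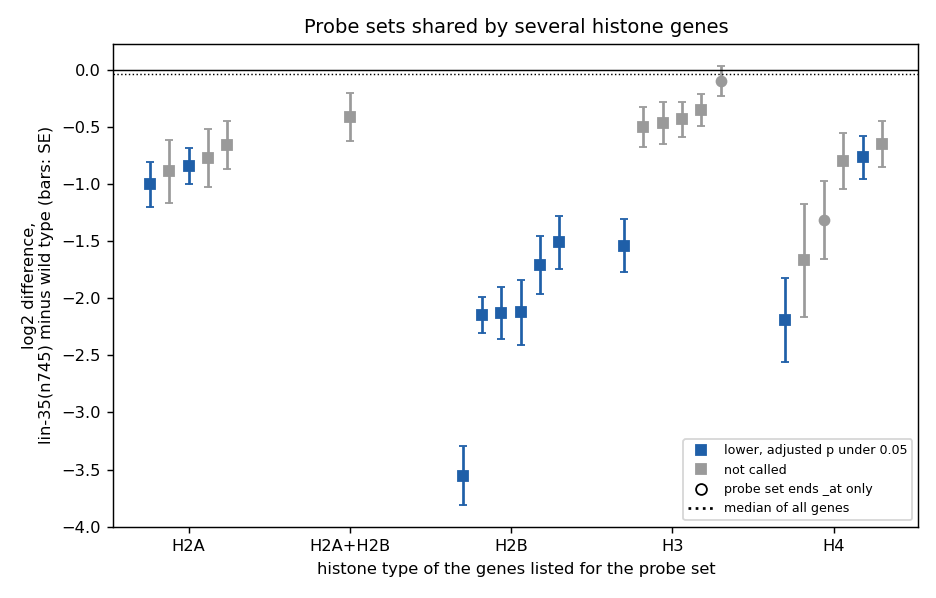
Log2 difference, lin-35(n745) minus wild type, of 24 probe sets that list several genes with at least 1 histone gene, by histone type, with the standard error from limma as bars and blue for adjusted p under 0.05. The 6 H2B probe sets lie between −3.55 and −1.51, and those of H4 between −2.19 and −0.65.

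The H3.3 genes had differences of both signs, and 1 of 5 fell. H3.3 replaces H3 in chromatin independently of replication. The gene his-71 read 11.09, 11.11 and 10.77 in the wild type and 9.85, 9.88 and 9.39 in the mutant, 2.43-fold lower (−1.28, SE 0.19, limma adjusted p = 0.00826), and was called without any 1 array. For his-72 the wild-type values were 11.44, 11.03 and 11.12 and the mutant values 11.40, 12.34 and 11.89. The groups overlapped through mutant replicate 1, and the difference of 0.68 did not pass (SE 0.26, limma adjusted p = 0.145). Without that array his-72 rose by 0.92 (limma adjusted p = 0.0487). Its dimmer probe set differed by 0.69 (limma adjusted p = 0.0531), with all mutant arrays above the wild type. The value of his-72 minus that of his-71 on the same array was 0.35, −0.08 and 0.35 in the wild type and 1.55, 2.46 and 2.50 in the mutant, 1 of the 7 pairs above (exact permutation p = 0.1). The gene his-74 differed by −0.98 (SE 0.31, limma adjusted p = 0.0852). Its call was gained when mutant replicate 2 was left out (0.0453). The neighbours his-69 and his-70 differed by −0.27 and −0.24, with adjusted p of 0.276 and 0.51, and all their values lay between 4.09 and 4.75, near the 25th percentile of the arrays at 4.20 to 4.38.

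The H2A.Z gene htz-1, whose product replaces H2A at promoters, had the highest difference of all 36 genes without passing the threshold. It read 10.34, 9.57 and 9.87 in the wild type and 10.46, 11.46 and 10.80 in the mutant. All mutant arrays were above the wild-type arrays, as in 13.1% of all genes, by 0.98 on average (SE 0.30, 95% interval 0.27 to 1.70, limma adjusted p = 0.0846). A dimmer probe set of htz-1 differed by 0.53 (limma adjusted p = 0.223). The sperm H2A variant htas-1 read 3.41, 3.57 and 3.41 against 3.52, 3.57 and 3.72, which is at the dim end of the arrays, whose 10th percentile lay at 3.56 to 3.72. Its difference of 0.14 did not pass (limma adjusted p = 0.628). Of 9 measured sperm markers 0 were called in either direction, where 6.12% of all genes fell and 5.71% rose. The sum of the unlogged values of these markers was 270.3 to 358 per wild-type array and 229 to 308 per mutant array.

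None of the 9 linker histone genes passed the threshold, and their median difference was −0.01, beside −0.04 for all genes. The H1 gene his-24 read 11.09, 10.49 and 11.11 in the wild type and 11.32, 11.15 and 11.08 in the mutant, a difference of 0.29 (95% interval −0.20 to 0.77, limma adjusted p = 0.462). A dimmer probe set of his-24 differed by 0.07 (limma adjusted p = 0.956). For hil-7 the values were 12.18, 11.50 and 11.79 against 11.80, 12.24 and 12.06, a difference of 0.21 (95% interval −0.30 to 0.72, limma adjusted p = 0.639), and its other probe sets differed by 0.23 and 0.28. In hil-6 alone among them the groups did not overlap, at −0.36 (limma adjusted p = 0.171). The intervals of hil-1 (−0.76 to 0.16) and hil-3 (−0.48 to 0.80) were narrower than those of hil-2 (−1.13 to 1.12), hil-4 (−1.12 to 0.74) and hil-5 (−1.40 to 0.86). In hil-2, hil-4 and hil-5 mutant replicate 1 was the lowest of the 6 arrays, at 9.12, 5.72 and 6.76. The 2 probe sets of hil-3 disagreed in sign, at 0.16 and −0.69, and neither passed. Readings of hil-8, from 3.62 to 3.93, and of the untyped his-73, from 3.28 to 4.15, lay at the dim end and can be background.

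Several genes that handle histones rose. Of 21 genes for histone chaperones, histone message processing and centromeric histones, 20 were measured, 5 rose and 0 fell, where 5.71% of all genes rose, and their median was 0.59. The centromeric H3 gene hcp-3 read 6.57, 6.02 and 6.37 in the wild type and 7.75, 8.20 and 7.93 in the mutant, a difference of 1.63 (SE 0.20, limma adjusted p = 0.00386). It was the only one of the 5 to keep its call without any 1 array. The other centromeric histone gene of the list, cpar-1, differed by −0.06 (limma adjusted p = 0.882). The gene for the CAF-1 subunit chaf-1, which places H3 and H4 on new DNA, rose by 1.20 (SE 0.25, limma adjusted p = 0.0243), and the H3 chaperone gene nasp-1 by 1.26 (SE 0.28, limma adjusted p = 0.0299). The Argonaute gene csr-1 and the helicase gene drh-3 act together in a small RNA pathway needed for maturation of core histone messages in the worm. They rose by 1.18 (SE 0.30, limma adjusted p = 0.0492) and 1.59 (SE 0.30, limma adjusted p = 0.0179). Also in the list, ekl-1 (0.31, limma adjusted p = 0.268) and ego-1 (0.53, limma adjusted p = 0.463) did not pass. The probe sets of hcp-3 and chaf-1 end in _s_at, and those of nasp-1, csr-1 and drh-3 in _at only. For cdl-1, the stem-loop binding protein of histone messages, the values were 7.85, 7.10 and 7.78 against 8.30, 9.03 and 8.21. Those groups did not overlap, and the difference of 0.94 did not pass (SE 0.29, limma adjusted p = 0.0868). The H3.3 chaperone gene hira-1 (0.54), the ASF1 gene unc-85 (0.59) and the FACT subunit gene spt-16 (0.52) had adjusted p between 0.127 and 0.249. Without wild-type replicate 1 the calls of chaf-1 (0.0952), csr-1 (0.155) and drh-3 (0.0644) were lost. Without mutant replicate 3 those of chaf-1 (0.0666), csr-1 (0.147) and nasp-1 (0.104) were lost, without mutant replicate 2 those of csr-1 (0.116) and nasp-1 (0.0763), without wild-type replicate 2 those of chaf-1 (0.0766), csr-1 (0.14) and nasp-1 (0.0752), and without wild-type replicate 3 those of csr-1 (0.0592) and nasp-1 (0.064).

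Of 16 genes of DNA replication and S phase entry, 10 rose and 0 fell, where 5.71% of all genes rose and 6.12% fell, and their median was 1.62. Cyclin E cye-1 read 4.45, 4.42 and 4.59 in the wild type and 6.93, 7.50 and 6.75 in the mutant (2.57, SE 0.22, limma adjusted p = 0.00091). The polymerase alpha subunit div-1 rose by 1.94 (SE 0.16, limma adjusted p = 0.00079) and the helicase subunit mcm-4 by 2.24 (SE 0.21, limma adjusted p = 0.00144). These 3 kept their calls without any 1 array, as 9 of the 10 did. The helicase subunit mcm-5, named after its values were seen, lost its call without mutant replicates 1 (0.0566) or 2 (0.0553) or wild-type replicates 1 (0.0937) or 2 (0.0829). Of the 16 genes 14 had positive differences and 2 negative ones. The gene orc-2 differed by −0.72 (limma adjusted p = 0.0952), with all mutant arrays below the wild type. The other, rnr-2, differed by −0.35 (limma adjusted p = 0.599), and its groups overlapped. On the same arrays, all 19 core histone genes had differences below 0.

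**Figure D5:**
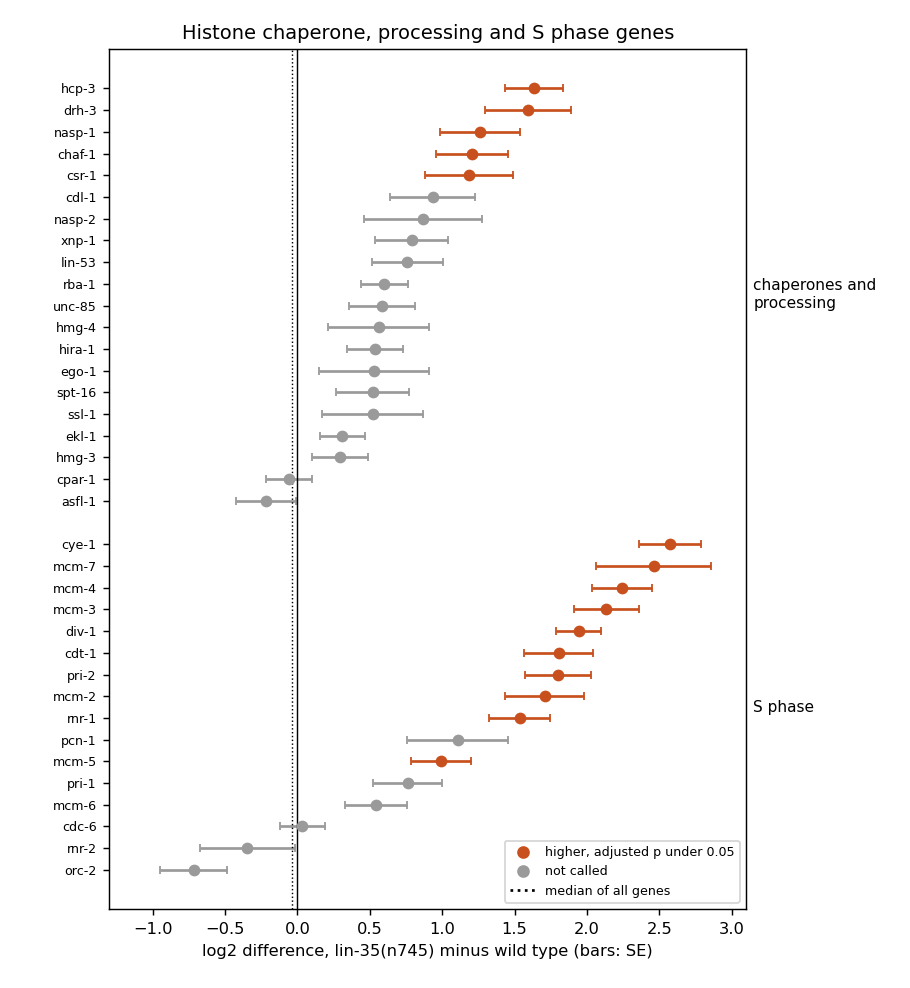
Log2 difference, lin-35(n745) minus wild type, of 20 histone chaperone and processing genes and 16 S phase genes, with the standard error from limma as bars, orange for genes that rose and grey for genes not called. The genes that rose lie between 0.99 and 2.57, and no gene in either group fell.

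The values of RNA quality, other cell types and the mutant gene itself were as follows. The 3' minus 5' difference of the actin control was 0.53 to 0.78 on wild-type arrays and 2.31, 0.41 and 1.23 on mutant replicates 1 to 3. For the Gapdh control it was 0.0085 to 0.13 on wild-type arrays and 0.78, 0.08 and 0.45 on mutant replicates 1 to 3. Mutant replicate 1 was also the lowest array for each of the 19 core histone genes except his-31, his-35, his-37, his-59 and his-67. When mutant replicates 1 and 3 were both left out and replicate 2 was assumed to vary like the wild type, all 19 core genes still had negative differences and 3 were called, his-4 (−1.56), his-39 (−1.59) and his-62 (−1.56). Calls were lost with differences of −1.96 for his-64, −1.23 for his-31, −1.06 for his-38, −1.11 for his-71, −0.90 for his-42, −0.57 for his-32 and −0.57 for his-68. With the 3' to 5' difference as a covariate 6 histone genes were called lower, his-4, his-39, his-62, his-31, his-64 and his-71, and 2 were called higher, his-72 (1.05, limma adjusted p = 0.024) and htz-1 (1.39, limma adjusted p = 0.0262). The same 6 genes were called lower when any 1 array was left out. Of 8 germ cell markers 4 rose and 0 fell, where 5.71% of all genes rose, namely glh-1 (4.40), pgl-3 (3.42), mes-4 (2.66) and pgl-1 (2.66). The other 4 did not pass, with differences of 0.34 for glh-4, 0.08 for glh-2, −0.22 for deps-1 and −0.38 for nos-2. The sum of the unlogged values of all 8 was 326 to 481 per wild-type array and 2505 to 3089 per mutant array. Of 9 markers of unhatched embryos 0 rose and 1 fell, where 5.71% of all genes rose and 6.12% fell. The sums of these markers, 1039 to 1825 and 1653 to 2709, overlapped. Of 8 markers of larval tissues 1 rose, with sums of 3543 to 10011 and 6573 to 8706. The calls of med-1 (−0.79, embryo) and elt-2 (0.98, larval) were lost without mutant replicates 2 or 3 or wild-type replicates 1 or 3. Of 9 adult, oocyte and eggshell markers 0 were called, with sums of 397 to 435 and 327 to 435. RMA gives no value of 0, so no marker is at 0, and the part of germ cell number in the differences of histone, chaperone and S phase genes was not tested. The lin-35 transcript differed by 0.06 (SE 0.19, limma adjusted p = 0.894). As a nonsense allele, n745 leaves the probed sequence in place, so this does not check the labels.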

How the data were processed

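The authors deposited log2 values, 1 per probe set and array, for 3 wild-type and 3 lin-35(n745) arrays. The submitters' processing notes name RMA, which corrects background and is meant to equalise array distributions. A shift of all transcripts may therefore not show. Medians of the deposited values were still unequal, at 5.93, 5.91 and 5.91 on wild-type arrays and 5.98, 6.11 and 5.91 on mutant arrays. The highest was that of mutant replicate 2, the mutant array kept when mutant replicates 1 and 3 were left out. The sources used here name no version and no filter for RMA, and arrays carry no read depth, so their number limits the precision. RMA understates folds of dim probe sets. Without 77 controls, 22548 probe sets were tested two-sided with limma 3.58.1 in R 4.3.3 (lmFit and eBayes), as mutant minus wild type, and p-values were adjusted over all of them by Benjamini-Hochberg. A gene counts as called, and its level as having risen or fallen, at an adjusted p under 0.05. SE is limma's, and 95% intervals use its 4 residual and 3.24 prior degrees of freedom.

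Genes were named from the platform annotation. Of the 36 histone genes, 34 had their identifier in the WBcel235 gene table, each with an unchanged symbol. Histone types came from textbook knowledge of the symbols. The members and all gene lists were chosen with earlier results of these data known. Values per array are given for his-4, his-39, his-62, called members, the brightest member of each type, htz-1, htas-1 and his-24, and other members by range, counts or difference. In the chaperone list every called gene and cdl-1, chaf-1, unc-85, hira-1 and spt-16 are named, and in the S phase list the 3 called genes of smallest p. Further genes of these lists were named after their values were seen. Shared probe sets and pairs of genes were added after seeing the data. Tested on simulated data with 22548 probe sets, few of them changed, the fit recovered 1.49% of 1.5-fold, 38.8% of 2-fold and 97.0% of 4-fold changes. In the data 2542 probe sets were called, so these shares need not hold for it. Alternatives were other scalings, filters on dim probe sets, _at probe sets alone, gene means, a replicate block, other variance settings, array weights, a 3' to 5' covariate and leaving out arrays.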

Additional observations from a re-analysis of the deposited data

How the results depend on the processing

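Across 18 alternatives, none of 170 values of the 10 called histone genes changed sign, and 43 lost the call. Over all 36 genes, 534 of 619 values kept direction and side of the threshold, 43 lost the call, 20 gained it and 22, in 6 genes never called under any alternative, changed sign. With mutant replicates 1 and 3 left out together the counts were 3 histone genes (H2A 0, H3 0, H4 0, H3.3 0), 4 shared probe sets, 2 chaperone genes and 768 probe sets in all (583 higher, 185 lower). Without _s_at and _x_at probe sets, 1 of 16 histone genes was called (his-35; H2B 0, H4 0, H3.3 0), 0 of 2 shared probe sets, and 1643 probe sets in all (753 higher), so that fewer genes were tested. Cyclic loess gave 6 histone genes (H2A 0, H3 0), and the 3' to 5' covariate gave 6 lower and 2 higher (H2A 0, H3 0, H3.3 2, H2A variant 1), with 753 probe sets lower in all. H2A counts were 0 with trend and robust settings (H3 1), and 3 with array weights or gene means. Centring arrays on their medians gave 4 H2A and 2 H3.3 genes and 2117 lower probe sets, and the share of calls that were higher was 37.6% against 50.4% in the reported fit. This moved the median of all probe sets by −0.09. H3.3 counts were 2 with array weights and repeated quantile normalization. The cause of these changes was not tested. Leaving out 1 array gave 6 to 11 histone genes (0 to 1 higher, 6 to 11 lower; H2A 0 to 1, H3 0 to 3, H4 2, H3.3 1 to 2), 8 to 11 shared probe sets, 2 to 6 chaperone genes and 1002 to 2380 probe sets in all (649 to 1173 higher, 353 to 1235 lower).

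The sign changes were these. For hil-2 the difference was 0.69 with the covariate, 0.15 with cyclic loess, 0.93 with mutant replicates 1 and 3 left out, 0.091 with repeated quantile normalization and −0.48 to 0.42 with 1 array left out. For hil-3 it was −0.043 with array weights, −0.27 as a gene mean, −0.69 without _s_at and _x_at probe sets and −0.16 to 0.33 with 1 array left out. For hil-4 it was 0.41 with the covariate, 0.49 with mutant replicates 1 and 3 left out, and −0.53 to 0.22 with 1 array left out. For hil-5 these were 0.28, 0.23 and −0.72 to 0.16. The gene his-37 stood at 0.046 with cyclic loess, and hil-8 at −0.025 with centring and −0.025 to 0.12 with 1 array left out. Of the values of gene pairs under the alternatives, 118 moved by less than the spread between replicates and 1, his-62 minus his-61, stood at −0.62 with mutant replicates 1 and 3 left out.

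Replicate numbers were not treated as pairs of arrays. Same-numbered arrays of the genotypes correlated at 0.048, 0.083 and 0.073 in their deviations from group means. Wild-type replicate 1 correlated best with mutant replicate 2 (0.188). With 3 arrays per genotype, these correlations cannot exclude a pairing. A replicate block called 9 histone genes lower (H2A 0), 13 shared probe sets and 3063 probe sets in all.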
